A study of Solanum lycopersicum with 9 samples.

Results

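Carotenoid synthesis was followed through 10 genes of tomato (Solanum lycopersicum), out of 34866 genes in the table of normalized counts. They were chosen by gene ID and not by a rule on their values, but earlier results of these data were known. They encode phytoene synthases 1 and 2 (PSY1 and PSY2), phytoene desaturase (PDS), zeta-carotene desaturase (ZDS), carotene isomerase (CRTISO), the epsilon and beta lycopene cyclases (LCYE and LCYB), a beta-carotene hydroxylase (BCH), zeaxanthin epoxidase (ZEP) and violaxanthin de-epoxidase (VDE). The tissue came from shoot apices of M82 SP+ seedlings, 12 to 14 days old, grown aseptically at 21 to 23 °C in days with 11 h of light and nights of 13 h. Cells were cut by laser from cryosections of 10 µm and gave 9 CEL-Seq libraries, 3 from each zone, each from 3 pooled sections. The central zone (CZ) of the shoot apical meristem holds proplastids and no chlorophyll, the peripheral zone (PZ) holds cells with partly built thylakoids and chlorophyll, and the leaf primordium (LP), cut on its lower side, holds well developed thylakoids. All zones came from the same untreated line, and they were picked by chlorophyll fluorescence, so a difference in greening was part of the choice.

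Carotenoids are made in plastids from geranylgeranyl diphosphate by enzymes that the nucleus encodes. Phytoene synthase makes the colourless phytoene, the desaturases and the isomerase turn it into red lycopene, and the cyclases close its ends to give the carotenes. Hydroxylation then gives xanthophylls such as lutein and zeaxanthin. In green tissue these pigments sit in the antenna proteins beside chlorophyll, where they collect light and quench the excess. ZEP and VDE run the xanthophyll cycle in opposite directions: ZEP makes violaxanthin from zeaxanthin, and VDE turns it back in strong light. The carotenoids are also the source of abscisic acid and strigolactones.

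Transcripts of all 10 genes were found in every zone, already in the CZ, but on few reads. Of 665240 reads on genes in the 9 libraries, 252 fell on these genes. For comparison, 93.4% of the 9208 genes with as many reads (9 to 55 in all) had reads in every zone. The highest levels were those of ZDS and BCH, with mean normalized counts of 3.47 ± 1.81 and 3.38 ± 2.80 (SD, n = 9), and the lowest those of CRTISO and PSY2, with 0.613 ± 0.790 and 0.559 ± 0.690. Of the 10 genes only BCH reached the minimum count of 6 for the main limma test, and it was not called between any zones. With no minimum count limma called 0 of the 10 in each comparison. Of all genes it then called 0.141% for LP against CZ, 0.0308% for PZ against CZ and 0.022% for LP against PZ. The gene with the largest difference between LP and CZ was ZEP, whose 3 LP libraries all lay above the 3 CZ libraries. For comparison, the LP and CZ libraries did not overlap, in either direction, for 7.1% of all genes with reads.

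The values are normalized counts, in which the reads of a gene are divided by a factor of its library. One read equals 0.288 normalized counts in the deepest library, CZ1 with 144665 reads, and 1.09 in LP3, the shallowest with 40286 reads. A value of 0 allows up to 3 reads, which is 0.865 in CZ1 and 3.28 in LP3, and covers counting error only. CEL-Seq reads the 3′ end of a transcript, so levels of different genes were compared without dividing by length. In tissue samples of this kind, fewer cells that express a gene and less RNA per cell cannot be told apart. LP and CZ differed as labelled in 1 meristem marker and 1 leaf marker. STM, which maintains the meristem, had 1.3, 0.60 and 1.09 normalized counts in LP, against 9.81, 4.67 and 17.01 in CZ (limma log2 fold change −2.39, adjusted p = 0.0184). YABBY1, which specifies the lower side of leaves, had 17.7, 22.33 and 40.42 in LP, against 14.42, 6.67 and 1.70 in CZ (log2 fold change 1.94, adjusted p = 0.00248). CUC2 (adjusted p = 0.0745) and YABBY3 (adjusted p = 0.128), the other markers, were not called between LP and CZ by limma. None of these markers was called by limma for PZ against CZ or for LP against PZ. CUC2 averaged 16.8 ± 1.56 in PZ, 14.4 ± 6.26 in CZ and 4.25 ± 2.05 in LP (SD, n = 3 each). Between LP and PZ its log2 fold change was −1.83 (limma adjusted p = 0.0611). The LP and PZ libraries did not overlap for CUC2, STM and YABBY1, but overlapped for YABBY3. Of all genes with reads, 6.1% did not overlap between LP and PZ. The study chose these markers on the same libraries, and its list also drew on qPCR of selected genes, which was not used here. Markers of epidermal and vascular cells were not analysed here.

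**Figure D1:**
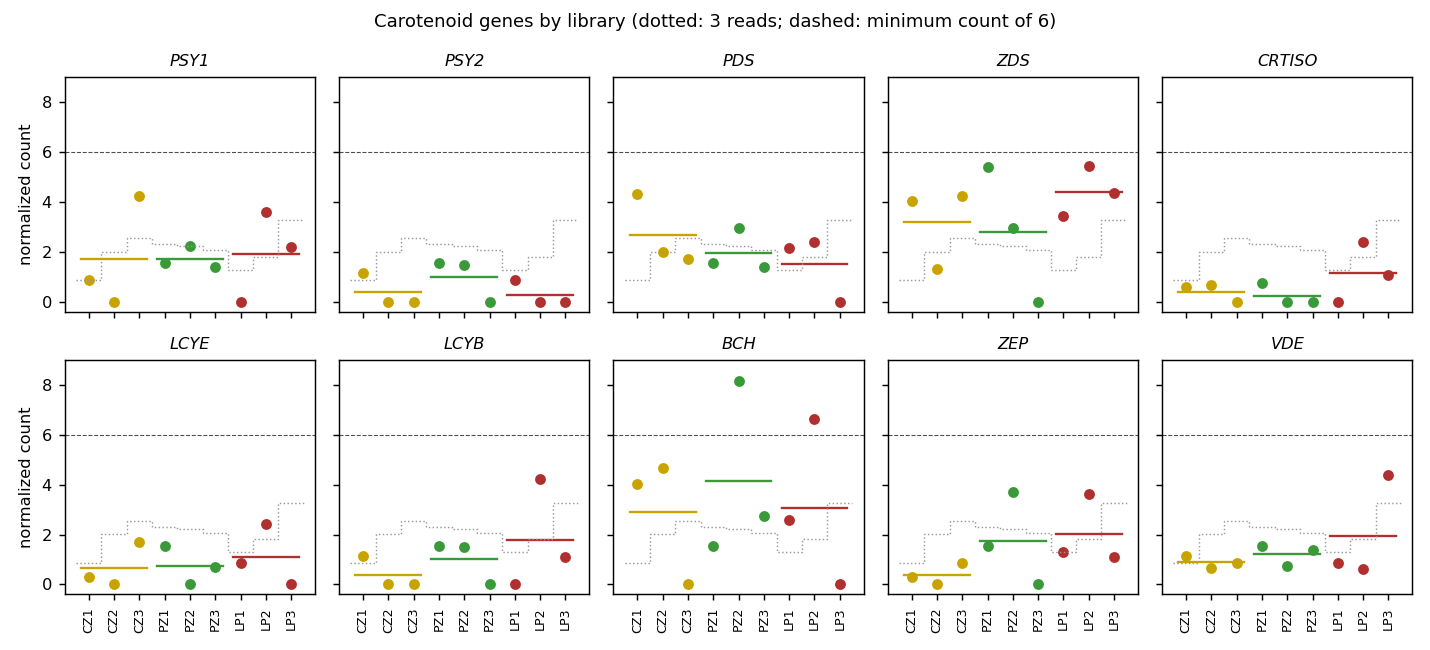
Normalized counts of the 10 carotenoid genes (vertical axis) in each of the 9 libraries (horizontal axis), with the zone mean as a horizontal line. The dotted line is the value of 3 reads in each library and the dashed line the minimum count of 6, which only BCH reached, in PZ2 (8.14) and LP2 (6.64).

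Phytoene synthase is the entry into the pathway. PSY1 (Solyc03g031860.2, chromosome 3, 4326134 to 4330327 in SL2.50), best known from ripening fruit, had 0.87, 0 and 4.25 normalized counts in the CZ libraries. In the PZ libraries it had 1.54, 2.22 and 1.38, and in the LP libraries 0, 3.62 and 2.18. The zones overlapped, and the zone means (1.71 ± 2.25 for CZ, 1.71 ± 0.446 for PZ, 1.93 ± 1.82 for LP, SD of 3 libraries) lay closer together than the libraries of CZ or LP. PSY2 (Solyc02g081330.2, chromosome 2, 45335358 to 45339357), the form best known from green tissue, had 1.15, 0 and 0 in CZ, 1.54, 1.48 and 0 in PZ, and 0.86, 0 and 0 in LP. These were 10 reads in all, in 4 of the 9 libraries. Over the 9 libraries PSY1 exceeded PSY2 by 1.23 ± 1.79 normalized counts (SD), and was the higher in 5 libraries and the lower in 2 (exact permutation test of the paired differences, two-sided p = 0.0938). After adjustment over 13 pairs of genes, chosen after the values were seen, this was p = 0.406 (exact permutation test). The paralogs may share reads of 36 bp, so their separate values are uncertain. Phytoene synthase 3 (Solyc01g005940.2), which is not among the 10, had 1 read, in LP2.

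The desaturases remove hydrogen from phytoene in successive steps. PDS (Solyc03g123760.2, chromosome 3, 70501011 to 70508814) had 4.33, 2 and 1.70 normalized counts in CZ, 1.54, 2.96 and 1.38 in PZ, and 2.16, 2.41 and 0 in LP. It was the gene whose level was lowest in LP relative to CZ, with 1.52 ± 1.33 in LP and 2.68 ± 1.44 in CZ, but the libraries overlapped. Summed over libraries, its reads per 100000 in LP were 0.544 times those in CZ (95% interval 0.218 to 1.25, counting error only). ZDS (Solyc01g097810.2, chromosome 1, 88515527 to 88523734) had 4.04, 1.33 and 4.25 in CZ, 5.40, 2.96 and 0 in PZ, and 3.45, 5.43 and 4.37 in LP. It was missing only from PZ3, where PDS had 1.38. Of the zones, LP had the smallest spread between libraries, with a mean of 4.42 ± 0.991. ZDS was higher than PDS in 5 libraries and lower in 3, and PDS minus ZDS was −1.42 ± 2.11 (exact permutation p = 0.0938, adjusted p = 0.406). CRTISO (Solyc10g081650.1, chromosome 10, 62682240 to 62686988), which turns the cis form of lycopene into the all-trans form, had 0.58, 0.67 and 0 in CZ, 0.77, 0 and 0 in PZ, and 0, 2.41 and 1.09 in LP. The 9 reads behind these values make it the gene with the fewest.

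The pathway branches at the cyclases. LCYE (Solyc12g008980.1, chromosome 12, 2285372 to 2290527), which opens the branch to alpha-carotene and lutein, had 0.29, 0 and 1.70 normalized counts in CZ, 1.54, 0 and 0.69 in PZ, and 0.86, 2.41 and 0 in LP. LCYB (Solyc04g040190.1, chromosome 4, 11947053 to 11948755), needed in both branches, had 1.15, 0 and 0 in CZ, 1.54, 1.48 and 0 in PZ, and 0, 4.22 and 1.09 in LP. Its LP mean of 1.77 ± 2.19 was above the CZ mean of 0.383 ± 0.664, but 7 of the 8 LP reads came from LP2, and LP1 had none. LCYB and LCYE did not differ beyond the spread over libraries (difference 0.221 ± 1.18, exact permutation p = 0.562, adjusted p = 0.880). Both cyclases together had 14 reads in LP and 7 in CZ, which is 6.48 against 2.68 per 100000. The exact Poisson intervals, 3.54 to 10.9 in LP and 1.08 to 5.52 in CZ, overlapped. LP2 held 11 of the 14 LP reads, and without it the LP value was 2.18 per 100000, below that of CZ.

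BCH (Solyc06g036260.2, chromosome 6, 25742378 to 25744513), which turns beta-carotene into zeaxanthin, had the most reads, 55 in all. It had 4.04, 4.67 and 0 normalized counts in CZ, 1.54, 8.14 and 2.76 in PZ, and 2.59, 6.64 and 0 in LP. CZ3 and LP3 had no read, where 4.27 and 3.33 reads would correspond to its share over all libraries. The libraries of a zone thus differed more than the zones, whose means were 2.90 ± 2.53 (CZ), 4.15 ± 3.51 (PZ) and 3.08 ± 3.35 (LP). BCH was higher than PSY2 in 6 libraries and lower in 0 (difference 2.82 ± 2.69, exact permutation p = 0.0312, adjusted p = 0.406).

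Of the enzymes of the xanthophyll cycle, ZEP (Solyc02g090890.2, chromosome 2, 52369508 to 52375308) had 0.29, 0 and 0.85 normalized counts in CZ, 1.54, 3.70 and 0 in PZ, and 1.3, 3.62 and 1.09 in LP. The lowest LP library was above the highest CZ library, while PZ spread over the whole range. In reads, LP had 3, 6 and 1, and CZ had 1, 0 and 1. The lowest LP value (1.09 in LP3) and the highest CZ value (0.85 in CZ3) thus each rested on 1 read. Their order came from the factors of the libraries. VDE (Solyc04g050930.2, chromosome 4, 48984097 to 48987853) had 1.15, 0.67 and 0.85 in CZ, 1.54, 0.74 and 1.38 in PZ, and 0.86, 0.60 and 4.37 in LP. It was the only gene with reads in all 9 libraries, and apart from LP3 its values lay between 0.60 and 1.54. Over all libraries ZEP and VDE had about the same level, 1.38 ± 1.41 and 1.35 ± 1.18 (exact permutation p = 0.969 for their difference).

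Ordered by mean level, the genes ran from ZDS and BCH through PDS (2.05), PSY1 (1.78), ZEP, VDE, LCYB (1.05), LCYE (0.832) and CRTISO to PSY2. For the 9 pairs of neighbours in this order the exact permutation p was between 0.141 and 0.969, so no neighbours were separated beyond the spread over libraries. Among genes with any read, ZDS had a higher mean level than 89.0% and PSY2 than 48.7%. The spread of the reads of a gene over the 9 libraries was set against counting error. The index of dispersion, which is 1 for counting error, was 1.11 for PSY2 to 2.64 for LCYB, with a median of 1.45 over the 10 genes. Over all genes with as many reads the median was 1.82. The index takes in any difference between zones, and whether the value of a gene exceeds 1 was not tested.

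**Figure D2:**
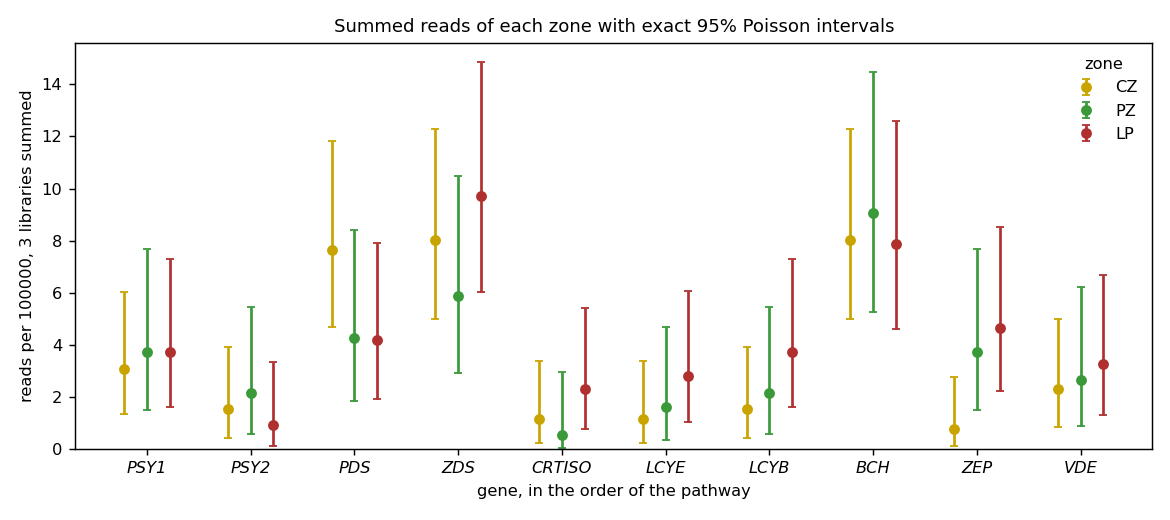
Reads per 100000 of each gene (vertical axis), summed over the 3 libraries of a zone, with exact 95% Poisson intervals that cover counting error only. The intervals of the zones overlap for every gene, and ZEP, with 0.765 for CZ, 3.72 for PZ and 4.63 for LP, shows the widest separation.

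The comparison of LP with CZ spans the gradient of greening. The limma test took genes that reached a normalized count of 6 in any library, and called those whose adjusted p was 0.05 or lower and whose change was 1.5-fold or more on the scale of log2(normalized count + 1). Of the 10 genes only BCH reached the minimum, and it was not called (log2 fold change −0.02, 95% interval −1.47 to 1.43, adjusted p = 1.00 from limma), where 1.43% of 4044 genes were called. With no minimum count all 10 genes could be tested, and 0 were called by limma, where 0.141% of 22708 genes were. At an unadjusted p under 0.05 limma likewise counted 0 of the 10, where 4.64% of all genes passed. Of the 9 genes with at least 10 reads in all, edgeR called 0 (0.573% of 10988 genes) and counted 0 at an unadjusted p under 0.05 (7.52% of genes). DESeq2 gave none of the 9 an adjusted p in this comparison, and counted 0 at an unadjusted p under 0.05 (4.17%).

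In that fit with no minimum, ZEP had the largest log2 fold change between LP and CZ, 1.07 (standard error 0.66, 95% interval −0.22 to 2.37). The unadjusted p from limma was 0.105 and the adjusted p 0.912. The exact permutation test of its normalized counts gave p = 0.1, two-sided, the smallest that 3 against 3 libraries allow. ZEP was 1 of the 10 genes whose LP and CZ libraries did not overlap, and 7.1% of all genes with reads did not overlap. Summed over libraries its reads per 100000 were 4.63 in LP and 0.765 in CZ, a ratio of 6.05 (95% interval 1.29 to 56.8, counting error only, resting on 10 and 2 reads). Without LP2 the LP value was 2.91 per 100000. LCYB followed with 0.78 (95% interval −0.51 to 2.07), then CRTISO with 0.48, ZDS with 0.44 and VDE with 0.42. Each of these 4 values moved with a single library: LCYB had 0.16 and CRTISO 0.07 without LP2, ZDS 0.06 without CZ2, and VDE −0.12 without LP3. PDS was the lowest at −0.67 (95% interval −1.95 to 0.61). Over the 10 genes, 7 values were above 0 and the median was 0.36, beside a median of 0.00 over the 22708 genes. The intervals reached 1.11 to 1.3 on the log2 scale to either side, so each left room for a 2-fold change on this scale in at least 1 direction.

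The comparison of PZ with CZ covers the step at which chlorophyll fluorescence appears. BCH was not called (log2 fold change 0.54, adjusted p = 0.963 from limma), where 0.321% of 4044 genes were called. With no minimum count limma called 0 of the 10 genes, where 0.0308% of all genes were called, and at an unadjusted p under 0.05 it counted 0, where 4.21% passed. On the recovered reads edgeR called 0 of 9 genes (0.3% of all) and counted 0 at an unadjusted p under 0.05 (6.17%), and DESeq2 called 0 (0.00912% of 10964 genes with an adjusted p) and counted 0 (2.71%). ZEP again had the largest value, 0.77 (95% interval −0.52 to 2.07), with 7 reads in PZ and 2 in CZ, and 0 reads in PZ3. It was 0.25 without PZ2 and 1.37 without PZ3. PSY2, LCYB and BCH stood between 0.52 and 0.54. ZDS had the lowest value, −0.43 (95% interval −1.66 to 0.81), with 0 reads in PZ3, and without that library the value was 0.35. The PZ and CZ libraries overlapped for all 10 genes, and 6.31% of all genes did not overlap. This comparison and that of LP with CZ share the CZ libraries, so the values of ZEP in them are not independent.

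Between LP and PZ, BCH was not called (log2 fold change −0.56, adjusted p = 0.898 from limma), where 0.148% of 4044 genes were called. With no minimum count limma called 0 of the 10 genes, where 0.022% of all genes were called, and it counted 0 at an unadjusted p under 0.05, where 4.53% passed. Of 9 genes edgeR called 0 (0.355% of all) and counted 0 at an unadjusted p under 0.05 (6.84%), while DESeq2 called 0 (0% of all) and counted 0 (2.79%). ZDS had the largest value, 0.87 (95% interval −0.37 to 2.1), with 3.45, 5.43 and 4.37 in LP, against 5.40, 2.96 and 0 in PZ. Without PZ3 this value was 0.09. PSY2 had the lowest, −0.59 (95% interval −1.70 to 0.53), on 2 reads in LP and 4 in PZ. The LP and PZ libraries overlapped for all 10 genes, and 6.1% of all genes did not overlap.

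**Figure D3:**
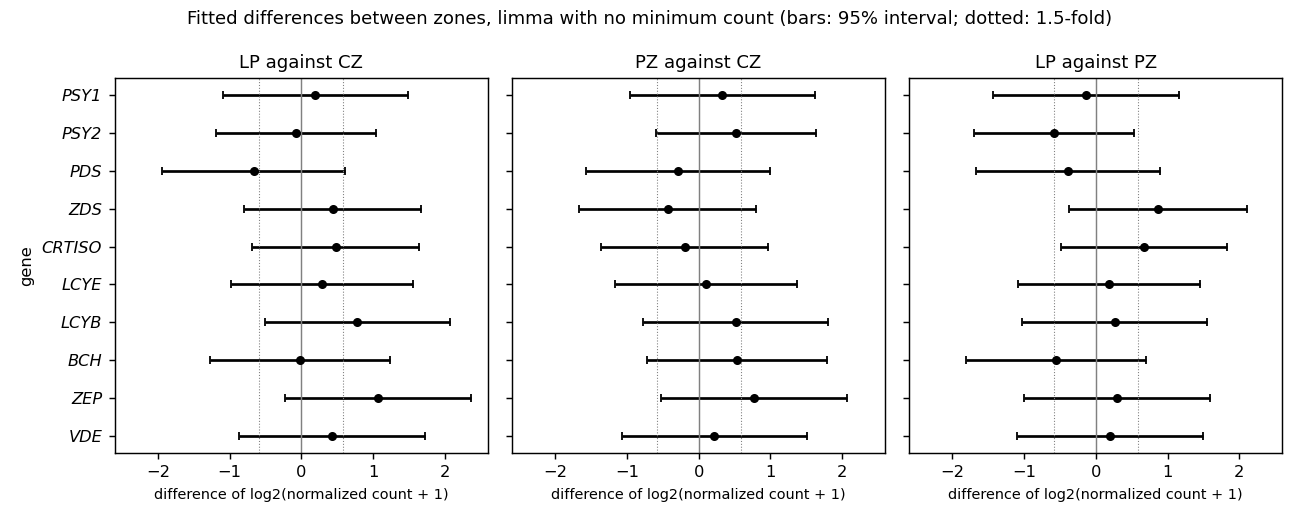
Differences of log2(normalized count + 1) between zones for each gene (horizontal axis), with 95% intervals from limma with no minimum count, for the 3 comparisons of zones. Every interval includes 0, and those of ZEP for LP against CZ (−0.22 to 2.37) and of ZDS for LP against PZ (−0.37 to 2.1) lie farthest to the right.

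Summed over the 10 genes, the libraries of a zone differed more than the zones. The sum was 42.9, 21.5 and 31.0 reads per 100000 in the CZ libraries, 41.1, 50.9 and 16.5 in the PZ libraries, and 28.8, 66.4 and 32.3 in the LP libraries. The CZ mean was 31.8 ± 10.7, the PZ mean 36.2 ± 17.7 and the LP mean 42.5 ± 20.8 (SD, n = 3 each). LP2 stood above the others and PZ3 below them. LP2 held the highest value of 4 genes, ZDS, CRTISO, LCYE and LCYB, while 12.3% of all genes had their highest value there. The log2 ratio of the LP mean to the CZ mean was 0.42 with all libraries and −0.06 without LP2. Reads were found for 10, 5 and 6 of the genes in CZ, for 10, 8 and 5 in PZ, and for 7, 9 and 6 in LP. In PZ1, 8 of the 10 genes had exactly 2 reads. At the depth of the shallowest library, 6.82, 4.04 and 5.46 genes would be found in the CZ libraries, 8.92, 7.30 and 4.11 in the PZ libraries, and 5.64, 8.31 and 6 in the LP libraries. Of the 90 values of these genes, 24 were 0 and 34 rested on 1 or 2 reads.

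The finished pigments are bound by antenna proteins, some of whose genes did pass the test. The study names 12 antenna genes of the photosystems and PSBS, a sensor of excess light. It chose them on these libraries, with qPCR for some genes of its list, and lists them as higher in LP than in CZ. Values above 0 and low p-values between LP and CZ were therefore part of the choice. They took 741.6, 368.8 and 637.9 reads per 100000 in the LP libraries, against 148.6, 278.5 and 238.1 in the CZ libraries. Of these 13 genes, all above the minimum count, 3 were called higher in LP than in CZ by limma and 0 lower, where 1.43% of 4044 genes were called, with a median log2 fold change of 1.34, and all 13 values were above 0. The 3 called genes encode LHCB1.3 (Solyc03g005760.1, log2 fold change 1.12, adjusted p = 0.00837), LHCB2.4 (Solyc07g047850.2, 1.59, adjusted p = 0.0184) and LHCA4 (Solyc03g115900.2, 1.87, adjusted p = 0.0178). LHCB1.3 may share reads with a close copy, Solyc03g005770. In the comparisons of PZ with CZ and of LP with PZ limma called 0 of the 13. In the fit with no minimum count, in which all carotenoid genes were tested, 1 of the 13 was called between LP and CZ (0.141% of 22708 genes), and 12 had an unadjusted p under 0.05 (4.64% of genes). For PZ against CZ an unadjusted p under 0.05 was counted for 2 (4.21% of genes), and for LP against PZ for 3 (4.53%). PSBS itself had 13.39, 8.45 and 5.46 in LP, against 3.17, 2 and 6.81 in CZ (log2 fold change 1.06, adjusted p = 0.565). Whether the change of the antenna genes differs from that of the carotenoid genes was not tested. Per 100000 reads, the library with the highest sum of the antenna genes in each zone had the lowest sum of the carotenoid genes, LP1 in LP, PZ3 in PZ and CZ2 in CZ. In LP1 they took 741.6 and 28.8 reads per 100000, in PZ3 471.5 and 16.5, and in CZ2 278.5 and 21.5. These sums share the depth of their libraries. The order was noticed in the values and was not tested. The library with the lowest antenna sum had the highest carotenoid sum in CZ (CZ1) and LP (LP2). In PZ these were different libraries, PZ1 and PZ2.

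**Figure D4:**
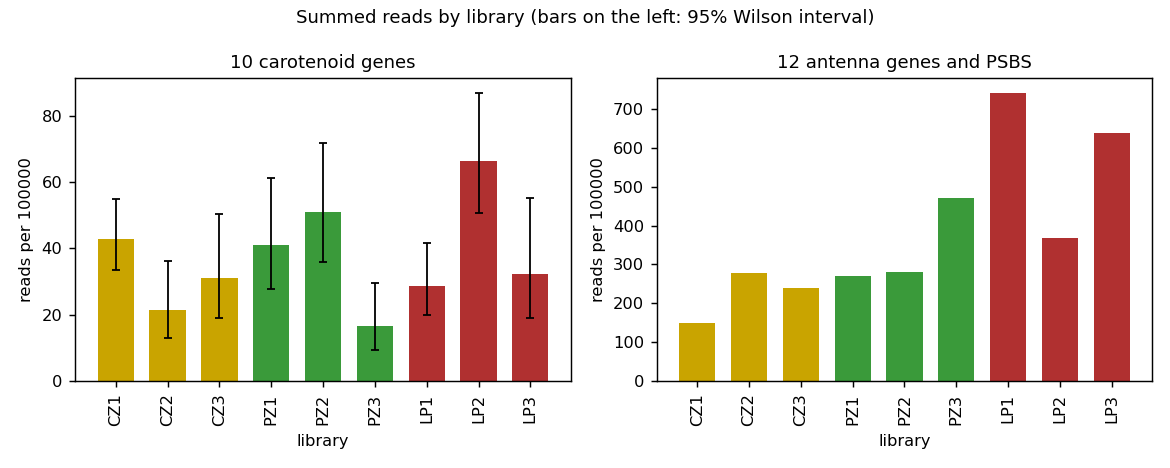
Reads per 100000 (vertical axis) by library, for the 10 carotenoid genes on the left, with 95% Wilson intervals, and for the 12 antenna genes and PSBS on the right. The carotenoid sum is highest in LP2 (66.4) and lowest in PZ3 (16.5), while the antenna sum is highest in LP1 (741.6).

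Further genes of the pathway were taken from lists of gene IDs that follow general knowledge of the tomato genome. The files give these IDs no names, so they are described as lists. Of 13 IDs for the synthesis of the plastid precursors up to geranylgeranyl diphosphate, 12 had reads and 3 reached the minimum count. In each comparison limma called 0 higher and 0 lower, and with no minimum count 2 of the 12 had an unadjusted p under 0.05 between LP and CZ (4.64% of all genes). Such a p was found for 1 in PZ against CZ (4.21%) and for 0 in LP against PZ (4.53%). The summed normalized counts of this list (SD, n = 3 each) averaged 18.5 ± 6.44 for CZ, 24.6 ± 2.75 for PZ and 29.3 ± 7.10 for LP, with overlapping libraries. Of 8 further IDs for carotenoid synthesis, PSY3 among them, 7 had reads and 0 reached the minimum, and their sum averaged 1.97 ± 1.25 for CZ, 3.44 ± 0.591 for PZ and 4.59 ± 0.522 for LP. The lowest LP library (4.22) stood above the highest PZ library (3.85) and the highest CZ library (3.33), which was not tested. These sums rested on 12, 7 and 4 reads in LP, 5, 5 and 4 in PZ, and 3, 5 and 2 in CZ. Of single genes with reads, 7.1% did not overlap between LP and CZ, and 6.1% between LP and PZ. Of 8 IDs for enzymes that cleave carotenoids, 7 had reads and 0 reached the minimum, with sums of 2.55 ± 1.48 for CZ, 4.58 ± 1.98 for PZ and 3.61 ± 0.689 for LP. The median log2 fold change between LP and CZ was 0.21 for the precursor list, 0.23 for the further carotenoid genes and −0.07 for the cleavage enzymes, over genes with reads.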

How the data were processed

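Tissue of 3 zones of the tomato shoot apex was sequenced as 9 CEL-Seq libraries. According to the methods, the authors mapped inserts of 36 bp with Bowtie2 2.1.0 in local mode. A script built on HTSeq counted them on genes of SL2.50 plus the plastid genome, and DESeq2 1.4.0 tested differences. The deposited values are a signal, normalized counts per gene. The scaling, and any collapsing of reads by molecular identifier, is not given in the sources used here. Reads were recovered from the step of each library, since 100% of values came out as whole reads (tolerance 0.0051). Libraries held 40286 to 144665 reads, so most genes have few.

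The main model used limma 3.58.1 (R 4.3.3) on log2(normalized count + 1) of all libraries, with zone as the only factor, a variance trend and p-values adjusted over all genes tested by the method of Benjamini and Hochberg. On this scale the change of genes with few reads is understated. Where no tool is named, an adjusted p comes from limma or, between genes, from the exact permutation test over libraries. Alternatives were pseudocounts of 0.5 and 2, other filters, equal totals, TMM factors, count tests of the recovered reads (edgeR 4.0.16, DESeq2 1.42.0), a replicate block, only the zones compared, and leaving out each library. The main fit was checked on simulated data, and this check did not cover the fit with no minimum count. Values were handled with Python 3.11.15, numpy 2.4.6, scipy 1.17.1, pandas 2.3.3 and matplotlib 3.10.9.

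By rule all 10 genes are named, and from the other lists genes that were called or are annotated with a step of a member, such as phytoene synthase 3. PSBS was named after its values were seen. The members and lists were chosen with earlier results of these data known. Names follow the list of IDs, and the RefSeq symbols of the enzymes (assembly SLM_r2.1, which pairs 0 of these IDs) lie on the same chromosome for 10 of 10. The study calls the libraries of a zone biological replicates, but which plants gave which library is not stated, so p-values measure the spread between these libraries.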

Additional observations from a re-analysis of the deposited data

How the results depend on the processing

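Under every alternative that gave a value, 0 of the carotenoid genes tested were called in each of the 3 comparisons. Alternatives that kept the minimum count of 6 in a library tested BCH alone. Those with at least 10 reads tested 9 genes, and those with no minimum count tested all 10. With a minimum of 6 on the mean of a zone none of the 10 genes was left to test, so that alternative gave no value. Between LP and CZ DESeq2 gave no adjusted p for BCH, nor for any of the 9 genes with at least 10 reads, so it made no call there to compare. The log2 fold change of BCH was near 0 between LP and CZ (−0.02) and changed sign with edgeR (0.0207, and 0.0160 with at least 10 reads in all) and with DESeq2 (0.0692, and 0.0654 with at least 10 reads). Leaving out a library it ranged from −0.83 to 0.78 between LP and CZ, from −0.27 to 0.98 between PZ and CZ and from −1.23 to 0.24 between LP and PZ, with no call. The limma value of ZEP between LP and CZ stayed above 0 in all 15 limma alternatives with no minimum count, from 0.71 to 1.49. That of PDS stayed below 0 in 15, from −0.98 to −0.10. On its own log2 scale edgeR, with at least 10 reads, gave 2.29 for ZEP (unadjusted p = 0.0932) and −0.76 for PDS (unadjusted p = 0.438). Some of the 15 could not move these values: the replicate block, only the zones compared, and leaving out a PZ library. ZEP and PDS were also the genes with the highest and lowest value in this comparison. The log2 ratios of the summed reads changed sign without LP2 (−0.06 for LP against CZ, −0.24 for LP against PZ) and without PZ2 (−0.14 for PZ against CZ), without CZ2 (−0.03 for PZ against CZ) and without PZ3 (−0.11 for LP against PZ). TMM scaling moved the median of all genes between PZ and CZ to −0.12, against 0.08 as deposited.

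Libraries with the same replicate number shared 9 correlations of deviations from the zone means between 0.03 and 0.11, of which 2 exceeded 0.1. For libraries with different numbers the correlations ran from −0.10 to 0.04. In 17 of 18 cases a library correlated best with its own number in another zone. Libraries of a number thus shared a weak deviation, and whether the numbers pair the samples is not stated. The main fit and the exact tests between zones did not use the numbers, so they leave this structure out. With a replicate block and the minimum count, BCH was the only carotenoid gene tested. It was not called in any comparison, and had adjusted p = 1.00 between LP and CZ by limma. The combinations of a setting with no minimum count, and the tests with at least 10 reads, were chosen after seeing the data.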
